A study of Mus musculus with 30 samples.

Results

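The collagen genes were read as a family in C2C12 cells, a mouse myoblast line that fuses into myotubes when serum is lowered. Members were all rows of the deposited table whose gene symbol had the form Col, a type number, a, and a chain number. There were 44 such rows among 48709, and 25 of them passed the level filter of 1 scaled CPM, met in 3 or more libraries, as did 12946 genes in all. Potassium chromate, a source of hexavalent chromium or Cr(VI), was added to the differentiation medium, and total RNA was sequenced. Groups were cells at 0 µM on day 0, cells at 0, 2 and 5 µM on day 1, cells at 0, 2 and 5 µM on day 2, and cells at 0, 2 and 5 µM on day 4, with 3 libraries in each of the 10 groups and the cell line in common. C2C12 is 1 immortal line, and the labels name no other cell type in the cultures.

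Collagens are trimers of chains that share a repeating glycine motif, and each chain has its own gene. Types I and III with their regulatory partner type V form the fibrils of connective tissue. Type IV forms the sheet of the basement membrane that wraps each muscle fibre, type VI forms beaded filaments that join that sheet to the fibrils, and loss of type VI causes muscle disease in people. FACIT collagens sit on the surface of fibrils, multiplexins and transmembrane collagens lie at or in the cell surface, and in adult muscle most fibrillar collagen is made by fibroblast-like cells rather than by fibres.

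Values are scaled CPM, read counts as the authors scaled them by 1 constant per library, and 18.5 to 26.9 M reads were recovered per library. Changes are differences of group means of log2(scaled CPM + 1), given with their standard error, and a member is said to rise or fall when its Benjamini-Hochberg adjusted p from limma over all 12946 genes was below 0.05. The labels call the replicates biological and do not say whether they were separate cultures, so these p values measure the spread between these libraries. Group means are given with their SD (n = 3). The 7 myogenic marker genes summed to 1253 to 6774 scaled CPM in the 28 libraries other than columns S7 and S12, and to 2825 and 2185 scaled CPM in S7 and S12. S7 is replicate 1 of 2 µM on day 1 and carried 2946 scaled CPM of 6 adipocyte markers, against 0 to 1.21 scaled CPM in the other 28, and 113 scaled CPM of 5 fibroblast markers, against 4.99 to 27.0 scaled CPM. S12 is replicate 3 of 5 µM on day 1 and carried 370 scaled CPM of 6 lung epithelium markers and 308 scaled CPM of 5 leukocyte markers, against at most 0.941 and 4.90 scaled CPM in the other 28. Counts of members called on day 1 are therefore given with and without both columns. Changes of single members on day 1 are from all libraries unless said otherwise. Where 3 values of day 1 are listed, S7 comes first at 2 µM and S12 last at 5 µM. The share of all genes called without both columns was computed only for chromium against control on day 1. In bulk RNA, fewer cells that make a transcript and less transcript per cell cannot be told apart.

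Promoter windows of 250 bases before to 50 bases after the start were taken from RefSeq (GRCm38.p6), where 35 of the 44 members had one, and none was found for Col1a1, Col5a2, Col12a1 or Col14a1. Col4a1 and Col4a2, the partner chains of the basement membrane trimer, are shown since they start on opposite strands with their annotated starts 21 bases apart, so that both windows hold the same 78 bases, in capitals. The Col4a1 window lies on the minus strand at chr8:11312777-11313076 and the Col4a2 window on the plus strand at chr8:11312555-11312854.

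Col4a1: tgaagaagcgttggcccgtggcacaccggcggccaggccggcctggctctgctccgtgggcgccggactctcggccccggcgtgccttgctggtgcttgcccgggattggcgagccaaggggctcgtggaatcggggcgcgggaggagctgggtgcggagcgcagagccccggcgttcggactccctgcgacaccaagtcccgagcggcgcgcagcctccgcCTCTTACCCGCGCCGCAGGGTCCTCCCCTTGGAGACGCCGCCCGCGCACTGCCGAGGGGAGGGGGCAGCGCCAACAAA
Col4a2: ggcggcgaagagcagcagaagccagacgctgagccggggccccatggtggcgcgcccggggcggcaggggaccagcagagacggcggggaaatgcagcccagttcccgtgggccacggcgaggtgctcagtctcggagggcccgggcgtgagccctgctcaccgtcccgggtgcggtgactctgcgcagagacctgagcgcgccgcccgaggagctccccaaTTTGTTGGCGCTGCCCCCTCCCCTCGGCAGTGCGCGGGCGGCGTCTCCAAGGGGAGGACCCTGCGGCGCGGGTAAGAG

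Col1a2, Col3a1 and Col6a1 are shown since the first and second are the most abundant members and the last had one of the largest falls. Capitals mark every match to the 4 motifs searched on both strands, which are the CCAAT box, the GGGCGG box, the TATAAA box and TGANTCA, the AP-1 motif. The windows are at chr6:4505368-4505667 on the plus strand, chr1:45311288-45311587 on the plus strand and chr10:76725995-76726294 on the minus strand.

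Col1a2: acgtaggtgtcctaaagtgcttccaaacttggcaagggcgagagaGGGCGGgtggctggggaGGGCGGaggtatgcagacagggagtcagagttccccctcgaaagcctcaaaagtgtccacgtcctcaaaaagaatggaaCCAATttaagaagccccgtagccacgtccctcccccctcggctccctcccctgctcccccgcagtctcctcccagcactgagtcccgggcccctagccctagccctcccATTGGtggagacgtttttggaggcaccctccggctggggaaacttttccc
Col3a1: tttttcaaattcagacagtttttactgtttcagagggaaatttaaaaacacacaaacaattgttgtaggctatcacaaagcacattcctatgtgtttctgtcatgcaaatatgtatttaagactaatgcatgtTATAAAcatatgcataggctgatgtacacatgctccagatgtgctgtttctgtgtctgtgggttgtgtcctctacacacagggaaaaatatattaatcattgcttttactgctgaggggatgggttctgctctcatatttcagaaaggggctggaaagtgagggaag
Col6a1: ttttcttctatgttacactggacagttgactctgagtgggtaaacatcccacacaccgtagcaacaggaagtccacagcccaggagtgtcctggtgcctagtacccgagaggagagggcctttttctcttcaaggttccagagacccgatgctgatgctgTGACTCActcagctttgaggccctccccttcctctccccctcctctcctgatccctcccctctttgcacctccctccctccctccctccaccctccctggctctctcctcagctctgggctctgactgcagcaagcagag

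Among the 20 tested members with a window, CCAAT was found in 11, GGGCGG in 14, TATAAA in 3 (Col3a1, Col13a1 and Col17a1) and TGANTCA in 1 (Col6a1). Over all 32851 windows of the same length, 37.41% held CCAAT, 35.66% GGGCGG, 13.62% TATAAA and 7.81% TGANTCA. In Col1a2 the CCAAT boxes began 109 bases before the start and, on the other strand, at base 1. The Col3a1 TATAAA began 117 bases before the annotated start and the Col6a1 TGANTCA match 90 bases before it. A match describes the letters of the window and is no evidence of a bound site.

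By class, 7 of 11 fibrillar members passed the filter, with 5 of 9 network-forming, 3 of 6 beaded-filament, 3 of 9 FACIT, 3 of 4 transmembrane and 2 of 2 multiplexin members, the anchoring-fibril gene Col7a1 and 1 of 2 others (Col26a1). Of these 25, 17 reached a mean of 10 scaled CPM in at least 1 group. Col15a1 passed through 3 libraries, S7, S12 and 1 control library of day 4, and with the filter applied to the other 28 libraries it was not tested, which left 24 members. Col2a1 and Col9a1, chains of cartilage collagens, were at 0 in all 30 libraries. By counting error alone a count of 0 allows up to 3 reads, which are 0.114 to 0.175 scaled CPM. Low counts differed between replicates by more than that, as given below. Bounds set at 3 reads per library therefore hold for counting error only. The 17 other members below the filter were Col4a3, Col4a4, Col4a6, Col6a4, Col6a5, Col6a6, Col9a2, Col9a3, Col10a1, Col11a2, Col19a1, Col20a1, Col22a1, Col23a1, Col24a1, Col27a1 and Col28a1. Of these, 5 had their highest value in column S12, with Col9a2 at 3.53, Col22a1 at 2.13, Col4a4 at 1.93, Col4a3 at 1.85 and Col23a1 at 1.32 scaled CPM. Outside S7 and S12, Col22a1 reached 2.09 scaled CPM (control, day 4) and Col23a1 1.24 scaled CPM, while Col9a2, Col4a3 and Col4a4 were at 0. The highest values of Col11a2 (1.45), Col6a4 (1.41), Col28a1 (1.34), Col10a1 (1.11) and Col24a1 (1.10 scaled CPM) were in other libraries, and the other 7 members stayed between 0.404 (Col6a6) and 0.981 (Col27a1) scaled CPM at most. Low values are unreliable in this table. Over all genes, 31.4% of pairs in which 1 replicate had 11 to 20 reads had 0 reads in another replicate. Among the 17 abundant members, a replicate with at least 11 reads was paired with a 0 in 4 of 978 pairs.

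In control cells on day 4, Col3a1 had the highest level per kb of exon in the family, at 144 ± 10.6 scaled CPM per kb. Col1a2 followed at 68.2 ± 7.01, then Col5a2 at 52.5 ± 0.150 and Col6a1 at 51.5 ± 4.06 scaled CPM per kb, and the replicates of these last members overlapped. Col1a1 (40.3 ± 4.27 scaled CPM per kb) and Col5a1 (34.96 ± 2.27 scaled CPM per kb) came next and also overlapped. Exons of 6 tested members share up to 141 bases with another annotated gene (Col3a1, Col4a1, Col4a2, Col5a1, Col7a1 and Col15a1). For Col3a1 (141 bases) and Col7a1 (36 bases) the other gene is on the same strand, and reads of these stretches cannot be told apart even with the strand. For the others it is on the opposite strand, and reads cannot be told apart without the strand.

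The first comparison follows the family through differentiation without chromium. On day 1 against day 0, 11 members rose and 2 fell of 25, where 25.4% of all genes tested rose and 22.7% fell. On day 2 there were 10 rises and 6 falls (27.6% and 24.3% of all genes), and on day 4 there were 13 rises and 4 falls (30.3% and 29.5%). These comparisons share the day 0 libraries. The member medians were 0.21, 0.28 and 0.78 (log2) on days 1, 2 and 4, against 0.04, 0.06 and 0.01 over all genes, and the day 2 median is 0.32 when Col25a1 and Col26a1, at 0 on day 0, are set at the bound that 3 reads per library give. Without S7 and S12, 11 members rose and 2 fell on day 1, and 12 rose and 6 fell on day 2. On day 4, 15 rose and 5 fell, or 14 and 5 with the filter applied to the other 28 libraries, where Col15a1 was not tested. The shares of all genes called in these fits were not computed.

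By day 4, 6 of 7 fibrillar members had risen. Col3a1, the fibrillar chain of distensible tissues, stood at 3260.0, 2755 and 3038 scaled CPM on day 1, against 627, 651 and 620.1 scaled CPM on day 0, a change of 2.25 ± 0.10 (adjusted p = 1.6e-19). On day 4 it had 1328, 1377 and 1528 scaled CPM, below every day 1 library and above every day 0 library (against day 0 1.15 ± 0.10, adjusted p = 3.5e-12). Col1a1, the chain found in a pair per type I trimer, had its highest control values on day 4, with 234, 271 and 289 scaled CPM, against 42.1, 34.5 and 26.3 scaled CPM on day 0 (2.93 ± 0.39, adjusted p = 6.6e-08). Its partner Col1a2 rose on day 1 (0.76 ± 0.10, adjusted p = 1.0e-07) and on day 4 was at 848 ± 87.1 scaled CPM, against 767 ± 19.5 scaled CPM on day 0 (0.14 ± 0.10, adjusted p = 0.24). The regulatory chains Col5a3 (1.58 ± 0.26), Col5a1 (0.98 ± 0.13) and Col5a2 (0.28 ± 0.10) rose by day 4, with adjusted p of 2.6e-06, 1.3e-07 and 0.013. The Col5a2 call was lost without replicate 1 of day 0 (adjusted p = 0.057).

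Of the type VI chains, Col6a1 and Col6a2 rose and Col6a3 fell. Col6a1 stood at 205, 231 and 239 scaled CPM on day 4, against 28.9, 35.2 and 34.9 scaled CPM on day 0, and Col6a2 at 104, 117 and 129 scaled CPM, against 4.09, 7.19 and 8.28 scaled CPM on day 0. Their rises were 2.74 ± 0.18 (adjusted p = 2.7e-15) and 4.01 ± 0.23 (adjusted p = 1.2e-16). Col6a3, the long chain that completes the same trimer, had 117, 84.9 and 118 scaled CPM on day 4, against 409.9, 377 and 382 scaled CPM on day 0, and fell by 1.87 (log2, adjusted p = 1.4e-13). The groups did not overlap for any of these chains. On day 1 Col6a1 and Col6a2 had already risen by 2.56 and 2.96, while Col6a3 (-0.28 ± 0.14, adjusted p = 0.099) did not pass.

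Among basement membrane chains, Col4a1 and Col4a2 were not called in control cells. Col4a1 was at 104 ± 11.4 scaled CPM on day 4, against 99.8 ± 7.07 scaled CPM on day 0, and Col4a2 was at 87.3 ± 12.2 scaled CPM, against 89.3 ± 5.40 scaled CPM. Neither passed on days 1, 2 or 4, though Col4a1 passed on day 2 without S7 and S12 (0.32 ± 0.12, adjusted p = 0.032). Col4a5, a chain of the type IV trimers outside the common one, rose on day 1 (1.51 ± 0.21, adjusted p = 3.5e-07) and did not pass on day 4 (0.13). Col8a1, a short network chain, fell on day 1 (-0.59 ± 0.19) and day 2 (-0.87 ± 0.19), with adjusted p of 0.011 and 2.6e-04. Col18a1, the basement membrane multiplexin that yields endostatin, had 29.3, 42.6 and 39.04 scaled CPM on day 4, against 204, 247 and 221 scaled CPM on day 0 (-2.58 ± 0.13, adjusted p = 2.1e-18). On day 1 its libraries stood at 233 to 252 scaled CPM and it was not called (0.13 ± 0.13, adjusted p = 0.45).

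Col25a1, a transmembrane collagen made by muscle and needed for motor innervation in mice, was the member that appeared during differentiation. It was at 0 in every library of control cells on days 0 and 1, at 0, 0.503 and 0.209 scaled CPM on day 2, and at 49.8, 44.3 and 42.2 scaled CPM on day 4. Set against 3 reads per library on day 0, a limit for counting error only, it was at least 326-fold higher on day 4. Col13a1, a transmembrane collagen of the neuromuscular junction, was also at 0 on day 0 and at 1.66, 3.698 and 0.789 scaled CPM on day 4. By the same limit it was at least 14.7-fold higher. Among FACIT members, Col12a1, which decorates fibrils under load, rose to 179, 144 and 195 scaled CPM on day 4, against 51.5, 43.3 and 57.5 scaled CPM on day 0 (1.74 ± 0.20, adjusted p = 2.9e-09). Col14a1, a FACIT member that binds decorin, rose on day 1 to 5.86, 1.87 and 3.99 scaled CPM, against 0, 0.0421 and 0 scaled CPM on day 0 (2.19 ± 0.41, adjusted p = 3.1e-05), and its rise on day 2 was lost without replicate 3 of that day (0.73, adjusted p = 0.14). Col16a1, a minor FACIT member, rose on day 1 (1.14 ± 0.38, adjusted p = 0.012), a call that was lost without replicate 3 of day 0 (0.77, adjusted p = 0.12).

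Col7a1, Col17a1, Col8a2, Col11a1 and Col26a1, all less abundant, were also called in control cells. Col7a1, the anchoring-fibril chain of skin, had 0.402, 1.93 and 0.6499 scaled CPM on day 4, against 5.89, 5.43 and 4.43 scaled CPM on day 0 (-1.72 ± 0.39, adjusted p = 2.8e-04), but on the recovered reads the adjusted p was 0.12 with edgeR and 0.063 with DESeq2. Col17a1, a chain of epithelial hemidesmosomes, fell on day 4 (-1.35 ± 0.32, adjusted p = 4.3e-04). Col8a2, Col11a1 and Col26a1 rose on day 4 by 1.10, 1.02 and 0.87, to levels of 0.402 to 5.02 scaled CPM. Col8a2 had fallen on day 2 (adjusted p = 0.046), a call that was lost without any of 5 single libraries. Of these last rises, Col26a1 was lost without replicate 3 of day 4 (0.54, adjusted p = 0.12), Col8a2 without any of 3 libraries and Col11a1 without any of 4. On the recovered reads Col8a2 (adjusted p = 0.43 with edgeR and 0.52 with DESeq2) and Col11a1 (0.12 and 0.091) were not called, nor were they with quantile normalization (0.12 and 0.067).

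**Figure D1:**
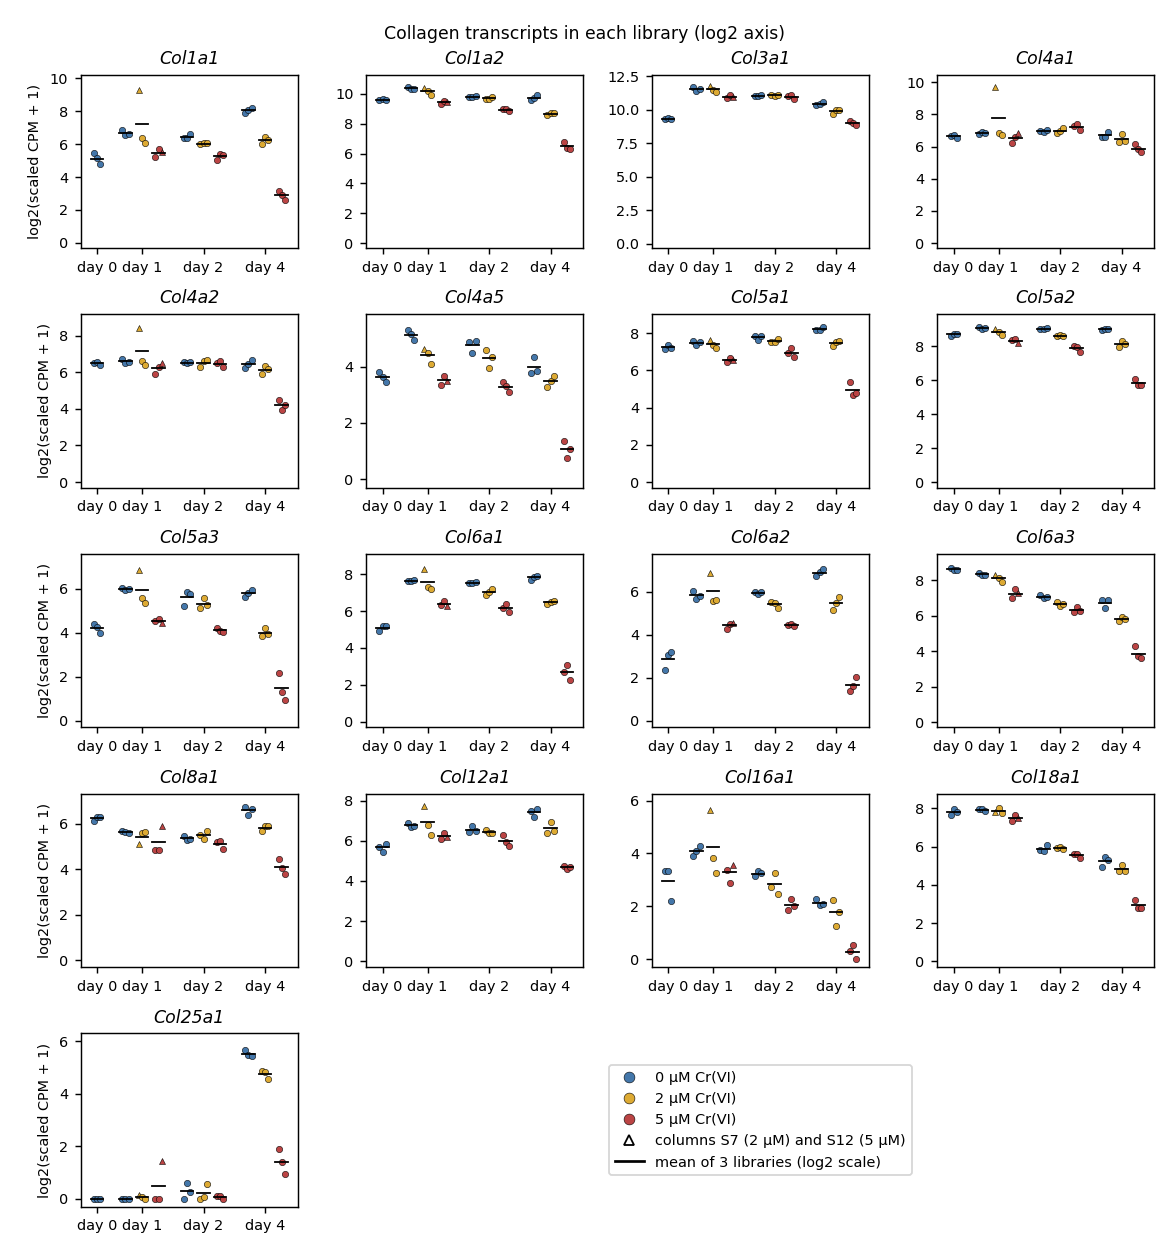
Scaled CPM on a log2(value + 1) axis for the 17 abundant collagens in each of the 30 libraries, by day and dose, with the mean of 3 as a bar and columns S7 and S12 as triangles. At 5 µM on day 4 the libraries of 16 of the 17 lie below all 27 others, the exception being Col25a1, which is at or near 0 before day 4. The share of all genes that do so was not counted.

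The next comparison sets chromium against control on each day, and its 5 µM and 2 µM tests share the control libraries of that day. On day 1 at 5 µM, 1 member rose and 11 fell of 25, where 4.29% of all genes rose and 9.41% fell. Without S7 and S12, 0 rose and 16 fell, where 4.27% and 8.79% of all genes did. The member median was -0.45 with all libraries and -0.55 without the pair, against -0.01 and -0.02 over all genes.

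On day 1 the falls included 6 of 7 fibrillar and 3 of 3 type VI members. Col1a2 had 641, 729.9 and 691 scaled CPM at 5 µM, against 1379, 1278 and 1254 scaled CPM in control (-0.92 ± 0.10, adjusted p = 1.9e-08). Col3a1 had 1888, 2218 and 1959.8 scaled CPM, against 3260.0, 2755 and 3038 scaled CPM in control (-0.58 ± 0.10, adjusted p = 6.1e-05). Every 5 µM library was below every control library for both chains. The fall of Col1a1 (-1.18 ± 0.39, adjusted p = 0.038) rested on 35.7 to 51.3 scaled CPM at 5 µM, against 91.9 to 113 scaled CPM in control. That call was lost when any single library of these groups was left out (adjusted p = 0.051 to 0.13) and with edgeR (0.063) or DESeq2 (0.088), and held without S7 and S12 (adjusted p = 3.3e-06). The 633 scaled CPM of S7 enter the spread of this gene in every comparison.

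Col4a5 had the deepest fall on day 1 (-1.63 ± 0.21, adjusted p = 6.9e-07), with 9.25, 11.8 and 10.4 scaled CPM at 5 µM, against 38.6, 34.8 and 30.1 scaled CPM in control. Col6a1 (-1.27 ± 0.18), Col6a2 (-1.40 ± 0.23) and Col6a3 (-1.08 ± 0.14) fell together on that day. Col5a1, Col5a2 and Col5a3 fell by 0.94, 0.77 and 1.46. Col18a1 (-0.45 ± 0.13, adjusted p = 0.016) was the smallest fall and was lost without replicate 2 of control (adjusted p = 0.059) or replicate 1 of 5 µM (0.088). The single rise, Col11a1 (1.26 ± 0.39, adjusted p = 0.029), rested on 1.07, 0.532 and 3.33 scaled CPM at 5 µM, against 0 in all control libraries. It was lost without S7 and S12 (0.83 ± 0.29, adjusted p = 0.053), without S12 alone, and without any single control library. All falls called with all libraries were also called without the pair. Without the pair, Col4a1 (-0.45 ± 0.14), Col4a2 (-0.52 ± 0.15), Col8a1 (-0.80 ± 0.15), Col12a1 (-0.55 ± 0.16) and Col16a1 (-0.96 ± 0.33) were called lower as well, with adjusted p of 0.025, 0.019, 2.4e-04, 0.019 and 0.047.

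On day 2 at 5 µM, 0 members rose and 12 fell, where 10.2% of all genes rose and 13.4% fell. The member median was -0.33 (-0.34 with Col11a1, at 0 at 5 µM, set at its bound), against -0.01 over all genes. Col5a2 led in adjusted p, with 258, 242 and 199.8 scaled CPM at 5 µM, against 516, 507 and 529 scaled CPM in control (-1.15 ± 0.10, adjusted p = 2.5e-11). Col6a1, Col6a2 and Col6a3 fell by 1.37, 1.49 and 0.73. Col5a3 (-1.49 ± 0.26), Col4a5 (-1.46 ± 0.21), Col1a2 (-0.87 ± 0.10) and Col5a1 (-0.83 ± 0.13) fell too.

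Col3a1, Col4a1 and Col4a2 were not called on day 2. Col3a1 had 2047, 2178 and 1786 scaled CPM at 5 µM, against 2052, 2096 and 2141 scaled CPM in control, and the groups overlapped (-0.07 ± 0.10, adjusted p = 0.68). Col4a1 had 154, 169 and 131 scaled CPM at 5 µM, all above the control libraries at 124, 119 and 131 scaled CPM, and did not pass (0.27 ± 0.36, adjusted p = 0.66). Col4a2 also did not pass (-0.07 ± 0.26, adjusted p = 0.89). The calls of Col1a1 (-1.18 ± 0.39), Col16a1 (-1.19 ± 0.38), Col12a1 (-0.59 ± 0.20) and Col18a1 (-0.34 ± 0.13) were each lost without 3 to 5 of the 6 single libraries, at adjusted p of up to 0.095, 0.074, 0.15 and 0.26.

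By day 4 at 5 µM, 20 members had fallen and 1 had risen, where 28.6% of all genes fell and 27.3% rose. Without S7 and S12, 22 fell and 1 rose, or 21 and 1 with the filter applied to the other 28 libraries, and the shares of all genes in these fits were not computed. The member median was -2.30, against -0.01 over all genes. It was -2.59 with Col15a1 and Col26a1, at 0 in every 5 µM library, set at the bound that 3 reads per library give. That value is the bound of Col15a1 itself, a ratio of scaled CPM without the added 1. Col15a1 passed the filter only with S7 and S12, so -2.30 is the median to read. Among the 17 abundant members, every 5 µM library was below every control library of that day for all 17. The share of all genes that separate in this way was not counted. All 7 fibrillar members fell, with 4 of 5 network-forming, 3 of 3 type VI, 2 of 3 FACIT, 2 of 3 transmembrane and 1 of 2 multiplexin members and Col26a1. Changes below are per gene and are not comparisons of level between genes.

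Both chains of type I collagen fell by day 4. Col1a1 had 7.96, 6.66 and 5.196 scaled CPM at 5 µM, against 234, 271 and 289 scaled CPM in control, a change of -5.14 ± 0.39 (adjusted p = 3.7e-13). Col1a2 had 108, 81.8 and 77.1 scaled CPM, against 768, 835 and 941 scaled CPM in control (-3.25 ± 0.10, adjusted p = 2.0e-23). Every 5 µM library was below every control library for both. The log2 ratio of Col1a1 to Col1a2, each as scaled CPM + 1, was -3.57 ± 0.12 at 5 µM and -1.68 ± 0.05 in control, a difference of -1.89 without overlap (exact permutation p = 0.10, two-sided).

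All chains of type V fell. Col5a1 had 41.1, 24.8 and 26.7 scaled CPM at 5 µM, against 283, 289 and 319 scaled CPM in control (-3.26 ± 0.13, adjusted p = 4.8e-20). Col5a2 had 65.2, 51.1 and 50.9 scaled CPM, against 503, 504 and 505 scaled CPM in control (-3.16 ± 0.10, adjusted p = 1.4e-23). Their log2 ratio was -0.86 ± 0.19 at 5 µM and -0.76 ± 0.09 in control and overlapped (difference -0.10, exact permutation p = 0.50, two-sided). Col5a3 had 3.53, 1.45 and 0.934 scaled CPM at 5 µM, against 48.8, 56.2 and 59.98 scaled CPM in control (-4.33 ± 0.26, adjusted p = 6.9e-16).

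Col3a1 had the smallest fall of the abundant fibrillar chains. It stood at 571, 509 and 474 scaled CPM at 5 µM, against 1328, 1377 and 1528 scaled CPM in control (-1.45 ± 0.10, adjusted p = 2.7e-14). The log2 ratio of Col3a1 to Col1a2 was 2.54 ± 0.13 at 5 µM and 0.74 ± 0.05 in control, a difference of 1.80 without overlap (exact permutation p = 0.10, two-sided). With 3 libraries against 3, 0.10 is the smallest p this test can give, and the 6 pairs of chains compared were picked with values known, so none of them can pass 0.05.

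Col6a1 and Col6a2 of type VI fell about as far as Col1a1, and Col6a3 fell by less. Col6a1 had 5.41, 7.48 and 3.85 scaled CPM at 5 µM, against 205, 231 and 239 scaled CPM in control (-5.14 ± 0.18, adjusted p = 4.1e-22). Col6a2 had 1.65, 2.08 and 3.09 scaled CPM, against 104, 117 and 129 scaled CPM in control (-5.19 ± 0.23, adjusted p = 4.0e-19). Both were lower by a factor of 35.2 and 36.5 on the scale of scaled CPM + 1. Col6a3 had 18.3, 11.97 and 11.03 scaled CPM, against 117, 84.9 and 118 scaled CPM in control (-2.88 ± 0.14, adjusted p = 4.8e-18). The log2 ratio of Col6a1 to Col6a2 was 1.00 ± 0.66 at 5 µM and 0.94 ± 0.05 in control and overlapped (exact permutation p = 1.0, two-sided). That of Col6a3 to Col6a1 was 1.17 ± 0.50 at 5 µM and -1.08 ± 0.32 in control, a difference of 2.25 without overlap (exact permutation p = 0.10, two-sided).

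Of the basement membrane partners, Col4a2 fell and Col4a1 was not called with all libraries. Col4a2 had 21.7, 14.1 and 17.6 scaled CPM at 5 µM, against 74.9, 87.8 and 99.2 scaled CPM in control (-2.24 ± 0.26, adjusted p = 7.9e-09). Col4a1, from the start site on the other strand, had 71.1, 55.5 and 49.1 scaled CPM, against 97.6, 96.5 and 117 scaled CPM in control, with no overlap but no call (-0.82 ± 0.36, adjusted p = 0.053). The 822 scaled CPM of Col4a1 in S7 enter its spread, and without S7 and S12 it was called (-0.82 ± 0.12, adjusted p = 6.8e-07), as it also was without replicate 1 of 5 µM (-0.97, adjusted p = 0.046). The log2 ratio of Col4a1 to Col4a2 was 1.67 ± 0.24 at 5 µM and 0.25 ± 0.12 in control, a difference of 1.42 without overlap (exact permutation p = 0.10, two-sided). On day 2 that ratio was 0.79 ± 0.01 at 5 µM and 0.44 ± 0.03 in control (difference 0.35, exact permutation p = 0.10, two-sided). Col4a5 was at 1.55, 0.676 and 1.11 scaled CPM at 5 µM, against 12.9, 19.5 and 13.5 scaled CPM in control (-2.94 ± 0.21, adjusted p = 1.2e-13). Col8a1 fell to 16.5 ± 4.15 scaled CPM at 5 µM, against 96.9 ± 12.5 scaled CPM in control (-2.50 ± 0.19, adjusted p = 4.9e-13).

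**Figure D2:**
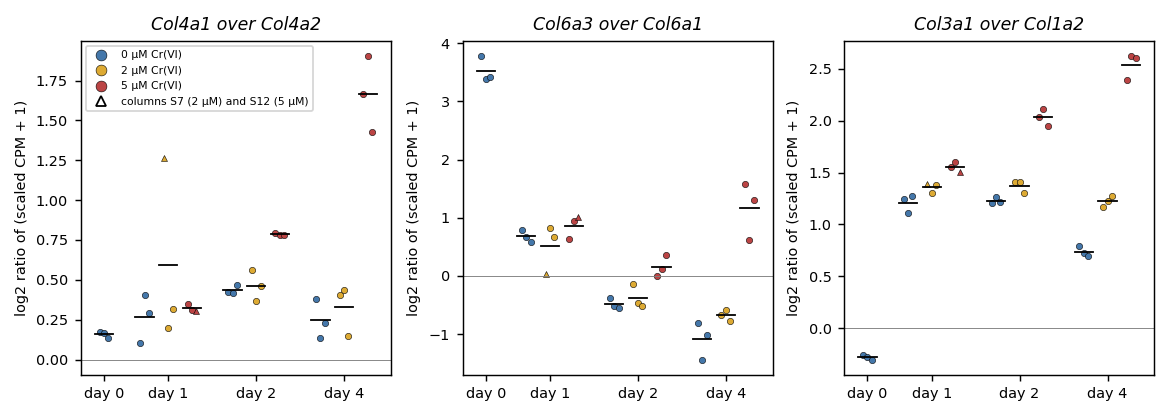
Log2 ratio of 2 chains, each as scaled CPM + 1, in each library by day and dose, with the mean of 3 as a bar. At 5 µM on day 4 all 3 libraries exceed the other libraries of that day in each panel, by 1.42 for Col4a1 over Col4a2, 2.25 for Col6a3 over Col6a1 and 1.80 for Col3a1 over Col1a2 against control.

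Members at the fibril and cell surface fell as well. Col12a1 had 25.8, 23.2 and 24.8 scaled CPM at 5 µM, against 179, 144 and 195 scaled CPM in control (-2.75 ± 0.20, adjusted p = 1.1e-13). Col18a1 had 8.38, 5.84 and 5.84 scaled CPM, against 29.3, 42.6 and 39.04 scaled CPM in control (-2.30 ± 0.13, adjusted p = 1.6e-16). Col25a1, the chain that appears on day 4 in control cells, had 2.78, 1.64 and 0.934 scaled CPM at 5 µM, against 49.8, 44.3 and 42.2 scaled CPM in control (-4.11 ± 0.31, adjusted p = 3.5e-13). Each of these had 5 µM libraries below all control libraries. Col16a1 was at 0.235, 0.434 and 0 scaled CPM, against 3.87, 3.09 and 3.203 scaled CPM in control (-1.85 ± 0.38, adjusted p = 8.8e-05).

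Col14a1 was the one member that rose at 5 µM on day 4. It had 5.98, 6.95 and 6.36 scaled CPM, against 0.151, 0.709 and 1.53 scaled CPM in control (2.12 ± 0.41, adjusted p = 4.0e-05), without overlap. Its day 2 libraries had 3.76, 3.88 and 2.998 scaled CPM at 5 µM, against 0.452, 0.9601 and 4.39 scaled CPM in control, where the groups overlapped. On day 4 it also stood above 2 µM, at 0, 0.456 and 2.32 scaled CPM (2.13 ± 0.41 for 5 against 2 µM, adjusted p = 4.9e-05).

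Of the less abundant members, Col8a2 (-1.62 ± 0.42), Col11a1 (-1.09 ± 0.39), Col13a1 (-1.08 ± 0.34) and Col26a1 (-0.87 ± 0.29) fell, with adjusted p of 0.0014, 0.019, 0.0069 and 0.011. All 4 stood at or below 5.02 scaled CPM in control and 1.98 scaled CPM at 5 µM. On the recovered reads Col8a2 and Col13a1 were not called by edgeR (adjusted p = 0.25 for both) or DESeq2 (0.32 and 0.46), and Col11a1 was not called by edgeR (0.071). The Col11a1 call was lost without any of 4 single libraries. Without replicate 3 of control the Col26a1 change was -0.54 (adjusted p = 0.13), and without replicate 2 of control that of Col13a1 was -0.71 (adjusted p = 0.092). Col7a1, Col15a1 and Col17a1 were not called, with at most 2.03 scaled CPM in any library of either group. The fit without S7 and S12 called Col15a1 (-0.80 ± 0.29, adjusted p = 0.019), but the gene had passed the filter only with those columns, so no call is read from it.

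**Figure D3:**
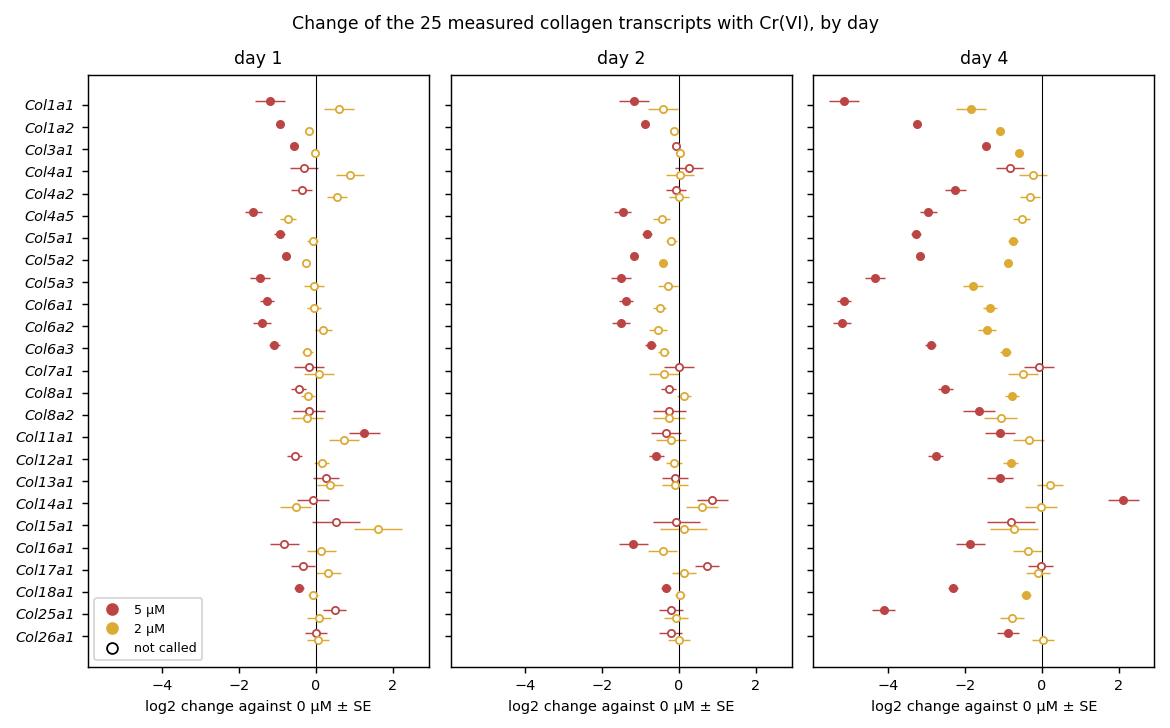
Log2 change against control with its standard error for the 25 measured collagens at 5 µM (red) and 2 µM (yellow) on days 1, 2 and 4, filled where called. At 5 µM 11, 12 and 20 members fell on days 1, 2 and 4, and at 2 µM 0, 1 and 12 did.

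The difference between 5 µM and control was more negative on day 4 than on day 2 for 15 members and less so for 0, by a test of the change itself, where 11.2% of all genes changed downward and 12.5% upward. Without S7 and S12, 16 members did, and the share of all genes in that fit was not computed. All 15 were abundant members. Col1a1 had a change of -3.96 ± 0.55 (adjusted p = 1.8e-06), made of -5.14 on day 4 and -1.18 on day 2. Col3a1, which had not passed on day 2, changed by -1.38 ± 0.14 (adjusted p = 4.1e-09), and Col4a2 by -2.17 ± 0.37 (adjusted p = 4.5e-05). Col6a1 and Col6a2 changed by -3.77 and -3.70. The change of Col25a1, -3.90 ± 0.44 by limma, was not called by edgeR (adjusted p = 0.40) or DESeq2 (0.50), and its day 2 levels were at or under 0.503 scaled CPM. Col4a1 did not pass with all libraries (-1.10 ± 0.51, adjusted p = 0.12) and did without the pair (adjusted p = 1.1e-05).

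Most measured collagens at 5 µM on day 4 were below their level in control cells on day 0. Against control cells on day 0, 17 members were lower and 2 higher, where 29.7% of all genes were lower and 33.5% higher. Without S7 and S12, 18 were lower, and the share of all genes in that fit was not computed. The comparison with day 0 changes dose and day together. Col18a1 had 8.38, 5.84 and 5.84 scaled CPM at 5 µM on day 4, against 204, 247 and 221 scaled CPM in control on day 0 (-4.88 ± 0.13, adjusted p = 3.5e-26). Col6a3 (-4.76 ± 0.14), Col1a2 (-3.11 ± 0.10), Col5a2 (-2.88 ± 0.10) and Col5a3 (-2.75 ± 0.26) were lower by several fold as well. Col3a1 differed least among those called, at 518 ± 48.98 scaled CPM, against 633 ± 16.3 scaled CPM on day 0 (-0.29 ± 0.10), and that call was lost without replicate 3 of 5 µM (adjusted p = 0.073). For 16 of the 17 abundant members every 5 µM library of day 4 was below every day 0 library, and the exception was Col25a1, which was higher, at 2.78, 1.64 and 0.934 scaled CPM, against 0 in all day 0 libraries. Col14a1 was the other member above day 0 (2.87 ± 0.41, adjusted p = 2.0e-07). The share of all genes with every 5 µM library of day 4 below every day 0 library was not counted.

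At 2 µM most calls came on day 4, and no change between days was tested at that dose. On day 1, 0 members rose and 0 fell, where 0.518% of all genes rose and 1.48% fell. Without S7 and S12 the counts were again 0 and 0, where 0.216% and 0.672% of all genes were called. The member median was 0.04 with all libraries and -0.21 without the pair, against -0.004 and -0.001 over all genes. At an unadjusted p below 0.05 there were 5 members with all libraries and 7 without the pair. The share of all genes at that unadjusted level was not counted, so these 2 counts are not set against it. With adjusted p and all libraries, edgeR called 1 of the 25, Col4a1, higher (1.60, adjusted p = 0.022). DESeq2 called 1 higher and 1 lower. The shares of all genes these tools called were not counted. S7 set several day 1 means. Col1a1 stood at 633, 82.9 and 64.8 scaled CPM at 2 µM, the first being S7, against 113, 91.9 and 95.3 scaled CPM in control, and its change was 0.59 ± 0.39 with S7 and -0.44 ± 0.17 without the pair. Col4a1 (822, 112 and 106 scaled CPM) and Col4a2 (342, 97.2 and 84.7 scaled CPM) at 2 µM were set apart in the same way, against 111 to 120.2 and 90.5 to 103 scaled CPM in control. Their changes were 0.88 and 0.55 with S7, and -0.09 and -0.08 without the pair. With S7 kept, leaving out replicate 3 of 2 µM gave 3 members called higher, among them Col4a1 (1.39, adjusted p = 0.027) and Col4a2 (0.92, adjusted p = 0.047), and leaving out replicate 2 gave 1, Col4a1 (1.35, adjusted p = 0.031). Col15a1, a multiplexin of muscle and vessel basement membranes, was at 22.7 scaled CPM in S7, and its highest value in the 28 libraries other than S7 and S12 was 2.03 scaled CPM.

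On day 2 at 2 µM, 1 member fell and 0 rose, where 0.247% of all genes fell and 0.263% rose. That member was Col5a2, with 383, 408 and 385 scaled CPM at 2 µM, against 516, 507 and 529 scaled CPM in control (-0.40 ± 0.10, adjusted p = 0.046). The groups did not overlap, but the call was lost without any single library (adjusted p = 0.11 to 0.22) and with edgeR (0.060). The member median on that day was -0.13, against -0.01 over all genes.

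On day 4 at 2 µM, 12 members fell and 0 rose, where 3.74% of all genes fell and 5.11% rose. The member median was -0.72, against 0.01 over all genes. Col1a1 fell most, with 62.99, 85.6 and 73.4 scaled CPM at 2 µM, against 234, 271 and 289 scaled CPM in control (-1.83 ± 0.39, adjusted p = 0.0018). Col5a3 (-1.79 ± 0.26), Col6a2 (-1.43 ± 0.23), Col6a1 (-1.34 ± 0.18) and Col1a2 (-1.08 ± 0.10) fell by over 1 on the log2 scale as well. Col6a1 was at 81.8, 90.4 and 92.7 scaled CPM at 2 µM, against 205, 231 and 239 scaled CPM in control, and no library overlapped. Col3a1 (-0.59 ± 0.10), Col5a1 (-0.75 ± 0.13), Col5a2 (-0.86 ± 0.10), Col6a3 (-0.93 ± 0.14), Col8a1 (-0.77 ± 0.19) and Col12a1 (-0.81 ± 0.20) fell by less.

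The call of Col18a1 (-0.40 ± 0.13, adjusted p = 0.047) was lost without any of 4 single libraries, replicates 2 and 3 of control and 1 and 3 of 2 µM (adjusted p = 0.13 to 0.23), and that of Col12a1 without replicate 1 of 2 µM (adjusted p = 0.056). The basement membrane chains Col4a1 (-0.23 ± 0.36), Col4a2 (-0.31 ± 0.26) and Col4a5 (-0.52 ± 0.21) did not pass on day 4. Col25a1 had 28.6, 27.4 and 22.6 scaled CPM at 2 µM, all below the control libraries at 49.8, 44.3 and 42.2 scaled CPM, and did not pass (-0.78 ± 0.31, adjusted p = 0.12). Col16a1 did not pass either (-0.36, adjusted p = 0.65).

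Between the doses, 7 members were lower at 5 than at 2 µM on day 2 and 0 higher, where 8.13% of all genes were lower and 4.64% higher, and 10 were lower without S7 and S12. On day 4, 18 were lower and 1 higher, where 24.8% of all genes were lower and 22.8% higher, and 20 were lower without the pair. The shares of all genes without the pair were not computed between the doses. The day 2 members were Col1a2, Col4a5, Col5a1, Col5a2, Col5a3, Col6a1 and Col6a2, with changes of -1.21 (Col5a3) to -0.64 (Col5a1). On day 4 Col6a1 (-3.80 ± 0.18) and Col6a2 (-3.76 ± 0.23) differed most between the doses. For 13 of the 17 abundant members the 2 µM libraries of day 4 lay entirely between those of control and of 5 µM. The others were Col4a1, Col4a2, Col16a1 and Col18a1, where 2 µM and control overlapped while every 5 µM library was still below every 2 µM library. How many of all genes lie in this order was not counted.

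Summed over the 44 members, collagen transcripts on day 4 came to 4405 ± 310.3 scaled CPM at 0 µM, 2460 ± 229 at 2 µM and 862 ± 109.9 at 5 µM. On day 2 the sums were 4688 ± 113 scaled CPM at 0 µM, 4366 ± 137 at 2 µM and 3472 ± 330.2 at 5 µM, and on day 0 control cells had 3013 ± 75.4 scaled CPM. As a share of reads this was 0.418 ± 0.030% at 0 µM, 0.238 ± 0.025% at 2 µM and 0.0805 ± 0.0113% at 5 µM on day 4. Col3a1 made up 32.0 ± 0.11% of the sum at 0 µM, 38.1 ± 0.93% at 2 µM and 60.3 ± 2.0% at 5 µM on day 4. Without Col3a1 the sum of the other 43 members was 344 ± 61.7 scaled CPM at 5 µM, against 2994 ± 206 scaled CPM in control. Type VI chains 1 to 3 summed to 21.6 ± 3.67 scaled CPM at 5 µM, against 449 ± 32.7 scaled CPM in control. Per kb of exon, Col3a1 was highest at 5 µM too (52.8 ± 4.99 scaled CPM per kb), and Col4a1 (7.85 ± 1.51), Col1a2 (7.16 ± 1.34) and Col5a2 (5.81 ± 0.851 scaled CPM per kb) followed in overlapping order.

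**Figure D4:**
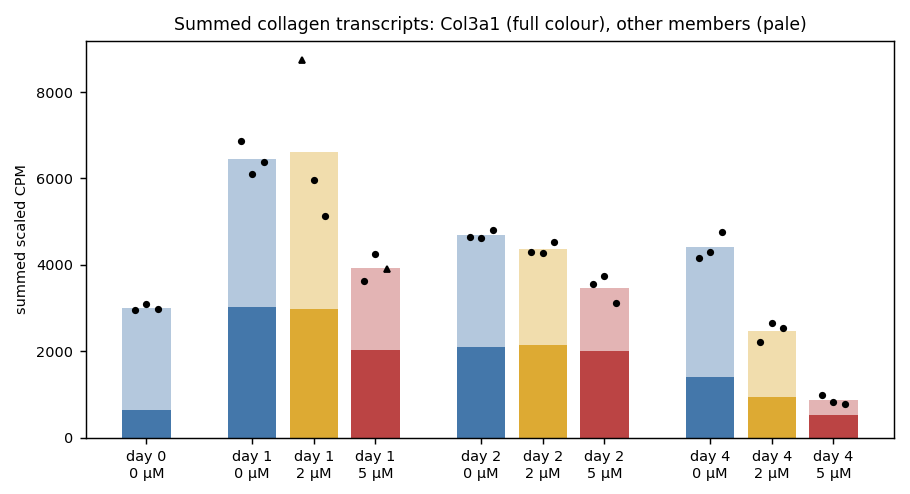
Summed scaled CPM of the 44 collagens by day and dose, with Col3a1 in full colour and the other members pale, bars as means of 3 libraries and points as the libraries (triangles S7 and S12). The sum on day 4 is 4405, 2460 and 862 scaled CPM at 0, 2 and 5 µM, and S7 stands above all others at 8750 scaled CPM.

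Markers of cell types were also read on day 4. The 5 fibroblast markers summed to 4.99 to 7.41 scaled CPM at 5 µM and 9.59 to 14.5 scaled CPM at 2 µM, against 10.7 to 14.2 scaled CPM in control, and Thy1 was at 0 in all libraries of 5 µM and control. The myogenic markers summed to 2882 to 3492 scaled CPM at 5 µM, against 5816 to 6668 scaled CPM in control. Myf5, a factor of undifferentiated myoblasts, stood the other way, at 86.8 to 98.3 scaled CPM at 5 µM, against 19.7 to 24.8 scaled CPM in control, while the other 6 were lower in every 5 µM library than in any control library. Of the 5 leukocyte markers, which summed to 3.25 to 4.90 scaled CPM at 5 µM, against 0.050 to 0.464 scaled CPM in control, Ptprc, Cd74 and Igkc were at 0 in both groups. Adipocyte, endothelial and lung epithelium markers each summed to at most 1.21 scaled CPM in both groups. The part of these markers in the collagen result was not tested.

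Other genes of the collagen pathway were read as 5 lists at 5 µM on day 4, where 28.6% of all genes fell and 27.3% rose. Of 14 tested genes for hydroxylation and glycosylation, which modify the chains before they fold, 8 fell and 1 rose. The lysyl hydroxylase Plod2 was at 34.8 ± 4.76 scaled CPM at 5 µM, against 105.5 ± 4.59 scaled CPM in control (-1.58 ± 0.10, adjusted p = 6.7e-15), and the prolyl 3-hydroxylase P3h1 fell by 0.94 (adjusted p = 1.3e-05). Of 10 chaperone and export genes, 9 fell and 1 rose. Creb3l1, a transcription factor that drives collagen export in bone of mice, fell by 1.84 (adjusted p = 3.4e-14), and the oxidase gene Ero1l rose by 1.36 (adjusted p = 9.2e-05). The medians of these lists were -0.51 and -0.54, against -0.01 over all genes.

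Of 6 genes for propeptide cleavage, 2 fell and 1 rose. The procollagen proteinases Adamts2 (-3.16 ± 0.49, adjusted p = 1.8e-06) and Adamts14 (-2.33 ± 0.20, adjusted p = 8.3e-12) fell, while the enhancer Pcolce rose by 0.25 (adjusted p = 0.023). Of 6 cross-linking genes, 4 fell and 0 rose, and the lysyl oxidases Loxl1 and Lox fell by 2.15 (adjusted p = 1.2e-15) and 1.08 (adjusted p = 1.2e-05). Of 6 receptor genes, 6 fell. The collagen uptake receptor Mrc2 was at 16.8 ± 3.62 scaled CPM at 5 µM, against 70.5 ± 1.92 scaled CPM in control (-2.03 ± 0.13, adjusted p = 2.5e-15), and the receptor kinase Ddr2 fell by 1.28 (adjusted p = 1.5e-10). At 2 µM on day 4 the same lists had 0, 1, 0, 1 and 0 falls and 0, 0, 1, 1 and 0 rises, in the order given. Of all genes, 3.74% fell and 5.11% rose there. Without S7 and S12 the chaperone list had 4 falls and the propeptide list 1, and the shares of all genes in that fit were not computed.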

How the data were processed

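RNA was taken from C2C12 cells with TRIzol and made into TruSeq libraries, per the labels' protocols. The aligner, counting tool, genome build, strand setting and scaling were not given in the sources used here. The deposited table holds a signal per gene that the authors scaled in each library. Its values were whole reads times 1 constant per library (0.038 to 0.0584), as 100.0% of values came out whole within 0.02 of a read, and each library summed to 892246 to 1079916, so the unit is called scaled CPM. The recovered depth was 18.5 to 26.9 M reads per library.

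Groups came from the labels' dose and day. Values were fitted as log2(scaled CPM + 1) with limma 3.58.1 in R 4.3.3, with 10 group means over all 30 libraries and genes at 1 or more in at least 3 libraries, Benjamini-Hochberg adjusted over 12946 genes (threshold 0.05). The pseudocount of 1 understates the change of low genes. Alternatives were other filters, pseudocounts and scalings, edgeR 4.0.16 and DESeq2 1.42.0 on the recovered reads, single libraries left out, a replicate block, and the fit without columns S7 and S12, also with the filter applied to the other 28 libraries (added after seeing the data). The fit was tested on simulated data. Chain ratios were compared by exact permutation (scipy 1.17.1, Python 3.11.15), and floors are 3 reads per library, for counting error only. Levels per kb used GENCODE union exon lengths. Members given in full had a group mean of at least 10 scaled CPM, the others are given by class or highest value, and pathway genes are among the 4 with the largest change called per list. Members, lists and chain pairs were chosen with earlier results of these data known. Replicate numbers were not used as pairs. In 0 of 45 pairs of groups did all same-numbered libraries deviate together (correlation over 0.1), and these correlations ran from -0.23 to 0.13. With 3 libraries per group this rule cannot show that the samples were unpaired.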

Additional observations from a re-analysis of the deposited data

Results flagged for a closer look

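The difference between 5 µM and control was larger in the downward direction on day 4 than on day 2 for 15 members, by a test of the change of the difference in limma, and no explanation was weighed. In fibrillar chains the change of the log2 difference was -3.96 for Col1a1, -2.83 for Col5a3, -2.43 for Col5a1, -2.37 for Col1a2, -2.01 for Col5a2 and -1.38 for Col3a1. In type VI it was -3.77 for Col6a1, -3.70 for Col6a2 and -2.15 for Col6a3. Among network-forming chains it was -2.25 for Col8a1, -2.17 for Col4a2 and -1.48 for Col4a5. It was -2.17 for Col12a1, -1.96 for Col18a1 and -3.90 for Col25a1, the last of which was not called by edgeR or DESeq2.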

How the results depend on the processing

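Of 163 member changes with a rounded adjusted p below 0.05, 3157 refits under the alternatives kept 3048 calls, lost 109 and reversed 0. The call of Col18a1 at 5 µM on day 2, whose adjusted p rounds to 0.05, was grouped with the changes not called and was lost in 8 further refits. Of the 35 changes in that group, Col18a1 included, 70 of 660 refits gave a call to a change not called and 12 turned in direction. For Col3a1 at 5 µM on day 2 the turned values were 0.0753 with quantile normalization and 0.0104 without replicate 3 of 5 µM (single libraries left out: -0.133 to 0.0104), and for Col4a2 0.0234 without that replicate (-0.16 to 0.0234). At 2 µM on day 1 without S7 and S12, with either filter, and likewise without S7 alone, they were -0.0864 for Col4a1, -0.0798 for Col4a2 and -0.44 for Col1a1, with single libraries left out giving -0.0864 to 1.39, -0.0798 to 0.921 and -0.438 to 1.197.

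The number of members called moved by over 1.5 times in few settings. At 2 µM on day 1 it was 0, but 1 (lower) with a pseudocount of 2, 1 (higher) with edgeR and 2 (1 higher and 1 lower) with DESeq2. At 2 µM on day 2 it was 1, but 0 without a filter, 0 with a pseudocount of 0.25, 0 with edgeR, 2 without S7 and S12 when the filter was applied to the other 28 libraries (chosen after seeing the data) and 5 when fitted on the groups compared alone, and the last setting gave 12 in place of 7 for 5 against 2 µM on day 2. For day 4 against day 0 it was 17, but 11 of the fewer members that pass a filter of 5 scaled CPM. The cause was not tested for the other settings.

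Leaving out single libraries gave 9 to 11 members at 5 µM on day 1, 8 to 10 on day 2 and 19 to 21 on day 4, with 0 to 3, 0 and 10 to 12 at 2 µM. Between the doses it gave 7 on day 2 and 18 to 20 on day 4. With a replicate block every count stayed as it was except day 2 against day 0 in control cells, at 15 in place of 16, where Col8a2 lost its call (adjusted p = 0.054). Whether the numbers pair the samples is not known, so this fit says nothing of the size of the change. Quantile normalization moved the median of all genes by -0.12 in control cells on day 2 against day 0, and no other scaling moved one by over 0.1. Values of members under about 1 scaled CPM are unreliable, given how often low counts faced a 0 in another replicate.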
